A study of Saccharomyces cerevisiae with 8 samples.

Results

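The genes described here are the 10 invertase, maltose and isomaltase genes of Saccharomyces cerevisiae carried by a yeast expression array. They were chosen by systematic name among the gene spots of the scanner files. All 10 were found, each as 1 probe in 2 spots, out of 6256 genes on the array, and all 10 were among the 5938 genes kept after dim probes were left out. They are SUC2 (YIL162W), the transporter genes MAL11 (YGR289C) and MAL31 (YBR298C), the maltase genes MAL12 (YGR292W) and MAL32 (YBR299W), the activator genes MAL13 (YGR288W) and MAL33 (YBR297W), and the isomaltase genes IMA1 (YGR287C), IMA2 (YOL157C) and IMA3 (YIL172C).

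The study set RNA taken 6 h into a fermentation assay (T6h) against RNA from its start (T0h), in yeasts of the sugarcane ethanol industry. The 5 T6h samples were JP1 (replicates 1 and 4), CAT-1 (replicates 2 and 5) and BY4741 (replicate 3), and the 3 T0h samples were JP1, CAT-1 and PE-2. PE-2 and CAT-1 are heterothallic diploid isolates, JP1 is a homothallic diploid isolate, and BY4741 is a haploid laboratory strain from the EUROSCARF collection, derived from the sequenced S288C background and deleted for HIS3, LEU2, MET17 and URA3. All cells had been grown beforehand in repeated batches of YPD, a rich glucose medium, and the labels used here do not name the medium of the fermentation assay. Each sample was labelled red (Cy5) and hybridised with BY4741 T0h RNA labelled green (Cy3), so every log2 ratio is a level relative to BY4741 at T0h. PE-2 was therefore seen at T0h alone, and BY4741 at T0h is the common reference.

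Sucrose, the main sugar of cane juice, is split outside the yeast cell by invertase, the product of SUC2, into glucose and fructose. Maltose is carried into the cell by proton symporters and split there by maltase. The genes for transporter, maltase and activator lie together in MAL loci near chromosome ends, and the activator turns on the other two when maltose is present. Isomaltases split isomaltose and related sugars with other linkages. Glucose represses SUC2 and the MAL genes through the Mig1 repressor, which recruits the Cyc8 and Tup1 corepressors, and the Snf1 kinase relieves this repression when glucose runs low.

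In the reference gene table, MAL13, MAL11 and MAL12 are neighbours on chromosome VII, with IMA1 beside MAL13. MAL33 and MAL31 are neighbours on chromosome II, where 1 small gene separates MAL31 from MAL32. SUC2 and IMA3 lie on chromosome IX and IMA2 on chromosome XV. MAL12 was 3 genes and MAL32 was 2 genes from the end of its chromosome in that table. The copy number of these genes in the industrial strains, and the match of their sequences to the probes, were not measured here.

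The arrays came from 2 slides that differed in the reference channel. In green, the software marked 89.9% to 91.3% of genes as well above background on each of the 6 slide 1 arrays, but 20.8% and 11.2% on the pair of slide 2 arrays, JP1 replicate 4 and CAT-1 replicate 5 of T6h. In red the share was 81.9% to 98.3%, and the median net signal was 38.9 and 61.5 in CAT-1 at T6h, the dimmest samples, and 1340 in PE-2, the brightest. The 4 genes deleted in BY4741 were at background in red on the BY4741 T6h array and above it on the other 7. The design calls the samples biological replicates without naming separate cultures, so a p-value here covers only the spread among these samples. In bulk RNA, fewer cells expressing a gene and less RNA per cell cannot be told apart.

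All 10 genes had green signal well above background on the 6 arrays of slide 1. On slide 2, SUC2, MAL31, IMA2 and IMA3 had it on the JP1 array, and none of the 10 had it on the CAT-1 array. In red, 8 of the 10 genes were well above background on all 8 arrays. The exceptions were the maltase genes MAL12 and MAL32, which passed in red on 3 arrays alone, those of PE-2 T0h, CAT-1 T0h and JP1 T6h replicate 1. None of the spots of the 10 genes was marked uneven, outlying or saturated.

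**Figure D1:**
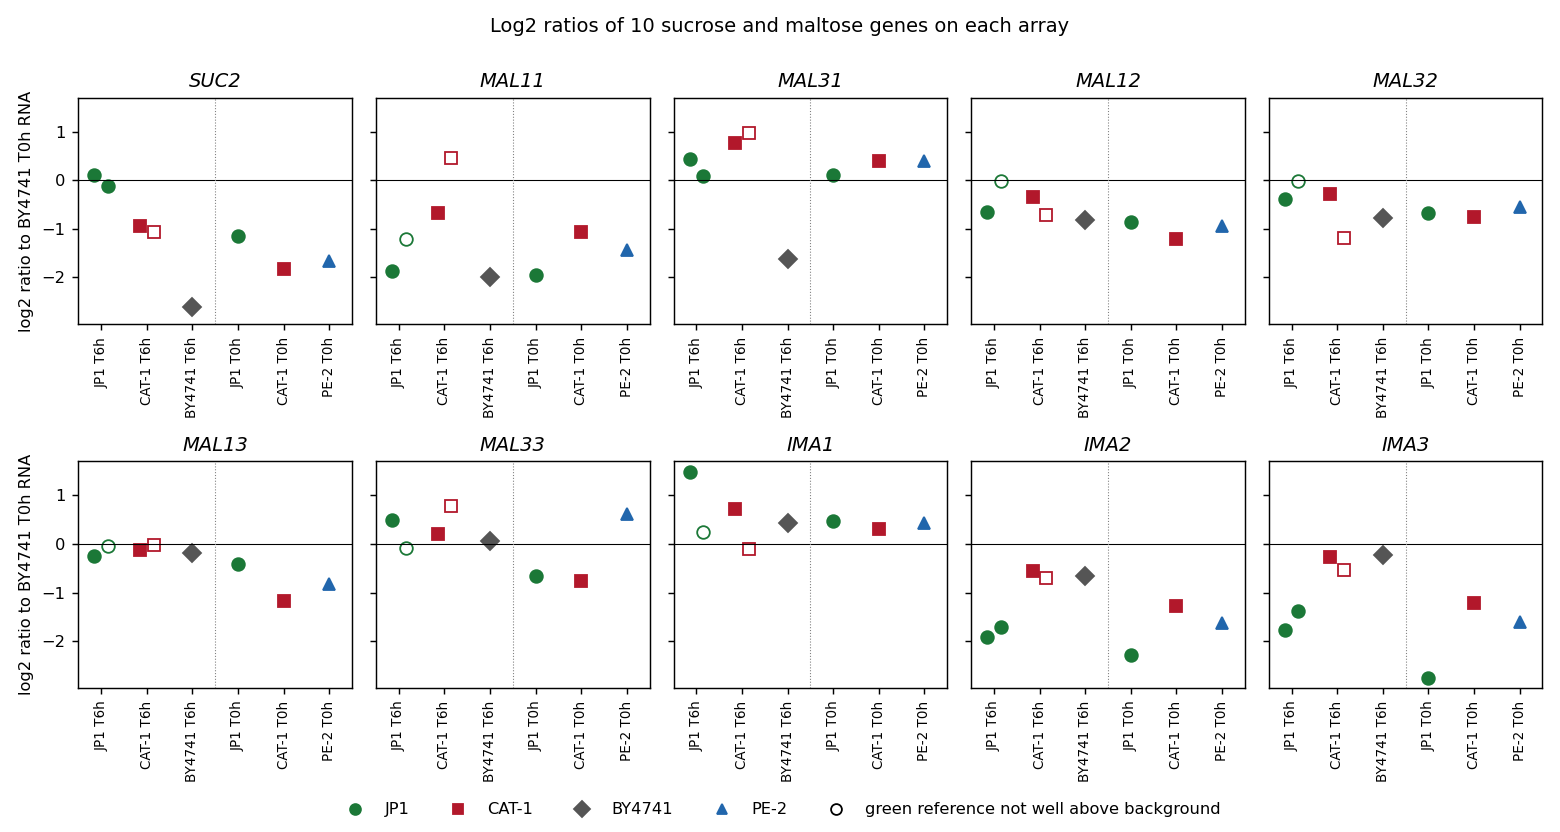
Log2 ratio of each gene to BY4741 T0h RNA (vertical axis) on each of the 8 arrays, with T6h samples left of T0h samples; each point is 1 array, and open points had green signal not well above background. SUC2 sat near 0 in JP1 at T6h (0.11 and -0.12) and lowest in BY4741 at T6h (-2.60), and MAL31 was below 0 in BY4741 at T6h alone.

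The first comparison asked how the genes changed over 6 h in JP1 and CAT-1, the strains with samples at both times. With strain as a term over 6 arrays, limma's moderated test called 3 of the 10 genes higher at T6h, SUC2, MAL33 and IMA3, and none lower, at an adjusted p under 0.05. Over all genes tested, 12.7% were called higher and 6.96% lower. All 10 differences in ratio were above 0, with a median of 0.64 on the log2 scale, against a median of -0.00439 over all 5938 genes. In the red channel alone, without the reference, MAL11 was at -0.16 and the others were above 0, with MAL12 and MAL32 at 0.08. The 3 calls were close to the threshold, with adjusted p of 0.0365 to 0.0436.

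SUC2, the invertase gene, had log2 ratios of 0.11 and -0.12 in JP1 at T6h, against -1.15 in JP1 at T0h. In CAT-1 it had -0.94 and -1.06 at T6h, against -1.82 at T0h. All 4 T6h values lay above both T0h values, those of CAT-1 only narrowly above JP1 at T0h. The difference was 0.98 (SE 0.29, 1.98-fold, limma adjusted p = 0.0365). That order of samples did not hold in the software's processed signals, which add no offset. There CAT-1 had -1.80 (replicate 2) and -1.20 (replicate 5) at T6h, against -1.94 in CAT-1 and -1.21 in JP1 at T0h. The JP1 T6h values of 0.15 and 0.03 stayed above both. In red signal alone, which uses no reference channel, SUC2 was higher by 1.21 and 1.14 in JP1, whereas the CAT-1 differences were 0.17 and -0.23. On that scale the mean difference was 0.57 and did not pass (limma adjusted p = 0.14). The net red signal of SUC2 in CAT-1 was 39.5 and 43.8 at T6h, against 506 at T0h, on the arrays with the dimmest red channel.

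MAL33, which codes for a MAL activator, had log2 ratios of 0.50 and -0.08 in JP1 at T6h, against -0.65 at T0h. In CAT-1 it had 0.20 and 0.78 at T6h, against -0.77 at T0h. Each T6h value was above both T0h values of these strains. The difference was 1.06 (SE 0.33, 2.08-fold, limma adjusted p = 0.0436). In red signal alone it was 1.13 (limma adjusted p = 0.0107), with 0.90 and 0.84 in JP1 and 0.97 and 1.81 in CAT-1. A pass on that scale was common over time, with 2505 of the 5938 genes called. Of the 10 genes 3 were, MAL33, IMA3 and IMA1. The 2 spots of MAL33 differed by 2.73 in log2 ratio on JP1 T6h replicate 4, where the green reference was dim, and by at most 0.13 on slide 1. At T0h, PE-2 stood apart from JP1 and CAT-1 with a MAL33 ratio of 0.61.

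MAL13, the activator gene of the chromosome VII locus, had -0.25 and -0.04 in JP1 at T6h, against -0.42 at T0h. In CAT-1 it had -0.12 and -0.02 at T6h, against -1.17 at T0h. All 4 T6h values lay in a narrow band above both T0h values. The difference of 0.68 (SE 0.31) did not pass (limma adjusted p = 0.153).

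IMA3, an isomaltase gene, had -1.77 and -1.38 in JP1 at T6h, against -2.75 at T0h. In CAT-1 it had -0.28 and -0.53 at T6h, against -1.22 at T0h. The change was of like size in both strains, but CAT-1 was higher than JP1 at each time. The difference over time was 1.00 (SE 0.30, 1.99-fold, limma adjusted p = 0.0396), and in red alone it was 0.60 (limma adjusted p = 0.0248).

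IMA2, another isomaltase gene, followed the same order of samples. It had -1.92 and -1.72 in JP1 at T6h, against -2.29 at T0h, and -0.55 and -0.70 in CAT-1 at T6h, against -1.28 at T0h. The time difference of 0.56 (SE 0.29) did not pass (limma adjusted p = 0.203).

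IMA1, the isomaltase gene beside the chromosome VII MAL locus, had 1.48 and 0.25 in JP1 at T6h, against 0.46 at T0h. In CAT-1 it had 0.71 and -0.10 at T6h, against 0.31 at T0h. In each strain the slide 1 array lay above T0h and the slide 2 array below it, so the groups overlapped, and the difference was 0.20 (SE 0.40, limma adjusted p = 0.773). In red alone all 4 IMA1 differences were positive, between 0.48 and 1.22, with a mean of 0.84 (limma adjusted p = 0.0133). The green signal of IMA1 was not well above background on slide 2.

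The transporter genes did not pass. MAL11, the gene of a transporter with a broad range of alpha-glucosides, had -1.87 and -1.20 in JP1 at T6h, against -1.95 at T0h, and -0.67 and 0.46 in CAT-1 at T6h, against -1.06 at T0h. Its difference was 0.68 (SE 0.38, limma adjusted p = 0.242), and in red alone the 4 differences lay between -0.36 and 0.07. The larger ratio differences of MAL11 were those of slide 2, where its green reference was not well above background. MAL31, a maltose permease gene, had 0.44 and 0.08 in JP1 at T6h, against 0.11 at T0h, and 0.76 and 0.98 in CAT-1 at T6h, against 0.38 at T0h. Its difference was 0.32 (SE 0.30, limma adjusted p = 0.503).

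The maltase genes were limited by signal. MAL12 had -0.65 and -0.03 in JP1 at T6h, against -0.85 at T0h, and -0.34 and -0.72 in CAT-1 at T6h, against -1.21 at T0h. MAL32 had -0.38 and -0.01 in JP1 at T6h, against -0.68 at T0h, and -0.28 and -1.18 in CAT-1 at T6h, against -0.76 at T0h. Of these 6 arrays, JP1 T6h replicate 1 and CAT-1 T0h alone had red signal well above background for either gene. The differences were 0.60 (SE 0.31) for MAL12 and 0.26 (SE 0.34) for MAL32, with limma adjusted p of 0.215 and 0.649.

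The 3 calls rested on few samples. With slide as a block, SUC2 alone kept its call (limma adjusted p = 0.0498), and with the 4 arrays of slide 1 the differences were 1.07 for SUC2, 1.06 for MAL33 and 0.96 for IMA3, with adjusted p of 0.0676, 0.0646 and 0.081. Leaving out 1 array, SUC2 lost its call in all 6 cases, MAL33 kept it only without JP1 T6h replicate 4 (adjusted p = 0.0347) and IMA3 only without JP1 T6h replicate 1 (adjusted p = 0.0483), with every difference between 0.82 and 1.26. All 3 calls were lost with an offset of 10 or with median centring, and MAL33 alone kept it with the software's processed signals (adjusted p = 0.0481).

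**Figure D2:**
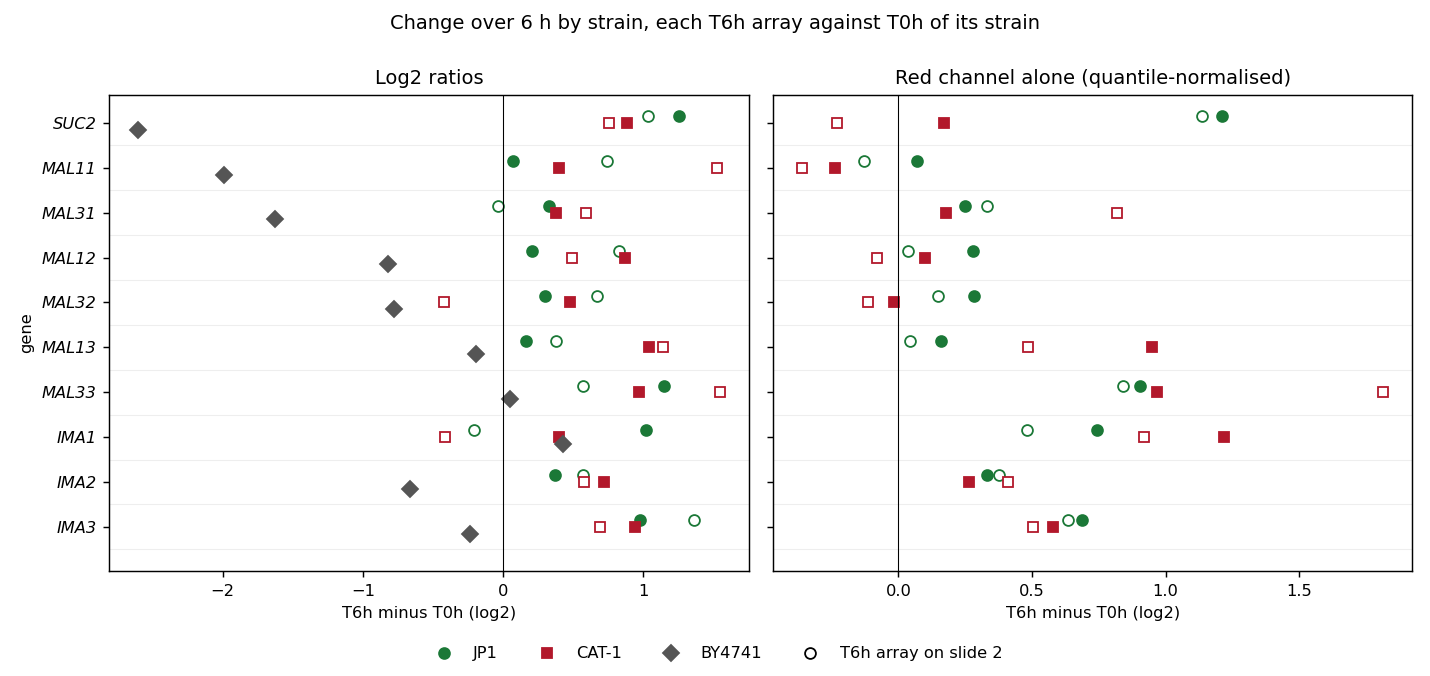
Difference between each T6h array and T0h of the same strain (horizontal axis, log2) for each gene, as log2 ratios on the left and as quantile-normalised red signal on the right; each point is 1 T6h array, open points are slide 2, and BY4741 has a value on the ratio scale alone. For SUC2 the JP1 points lie at 1.26 and 1.04 on the ratio scale and 1.21 and 1.14 on the red scale, while the CAT-1 points lie at 0.88 and 0.76 on the ratio scale and at 0.17 and -0.23 on the red scale.

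BY4741 at T6h was hybridised against its own T0h RNA on 1 array, so its change has no replicate and no test. Its T6h RNA was red and its T0h RNA green, so an effect of dye on a gene cannot be told apart from its change. Of the 10 genes, 3 were more than 2-fold lower at T6h and none was more than 2-fold higher. Over all genes on that array, 13.1% were more than 2-fold lower and 15.6% more than 2-fold higher. The 3 genes were SUC2 at -2.60 on the log2 scale (0.165-fold), MAL11 at -1.99 (0.251-fold) and MAL31 at -1.63 (0.324-fold), the invertase gene and both transporter genes. IMA2 had -0.66, IMA3 -0.24, MAL13 -0.19, MAL33 0.05 and IMA1 0.43. The maltase genes were not well above background in red on this array while their green T0h signal was. Their ratios were -0.82 for MAL12 and -0.78 for MAL32, which is 1.77-fold and 1.71-fold lower at T6h. The dim red signal of both genes was above the lowest signal of a detected probe, so these values are ratios of an undetected signal and not bounds.

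The changes of JP1 and CAT-1 over 6 h were then compared with the change of BY4741 in 1 fit, in which the lone BY4741 array is assumed to vary like the others. An effect of dye on a gene would enter the BY4741 change, which is red against green, but not the changes between red samples. In limma's test 3 of the 10 genes had a higher change in JP1 and CAT-1, SUC2, MAL11 and MAL31, and none a lower one, where 6.53% of all genes were called higher and 5.2% lower. For SUC2 the changes differed by 3.59 (SE 0.45, 95% interval 2.58 to 4.59, limma adjusted p = 0.00558), with all 4 industrial T6h arrays above T0h of their strain and BY4741 below its own. With processed signals these 4 industrial changes were 0.14 to 1.36, the smallest in CAT-1 replicate 2. In red signal alone they were 1.21 and 1.14 in JP1 but 0.17 and -0.23 in CAT-1. For MAL11 the changes differed by 2.68 (SE 0.60, limma adjusted p = 0.0279). MAL11 did not pass for a change in JP1 and CAT-1 themselves, so the larger part of this difference is the BY4741 value of -1.99. For MAL31 they differed by 1.94 (SE 0.46, limma adjusted p = 0.0333), with industrial changes between -0.04 and 0.59. The other 7 genes did not pass, with differences of 1.42 for MAL12, 1.23 for IMA3, 1.22 for IMA2, 1.03 for MAL32, 1.01 for MAL33, 0.87 for MAL13 and -0.23 for IMA1. All 3 calls were lost without CAT-1 T6h replicate 2 or without replicate 5, with adjusted p of 0.0609 and 0.0628 for SUC2, 0.0665 and 0.0967 for MAL11, and 0.0902 and 0.112 for MAL31. They were also lost with the scanner software's processed signals, an offset of 10 or median centring, with differences of the same sign.

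At the start of the assay, the 3 industrial strains were set against BY4741 through the ratio itself. In limma's test against 0, 7 of the 10 genes were lower in the industrial strains and none was higher, where 17.5% of all genes were called lower and 15.2% higher. The median of the 10 differences was -0.905, against 0.000192 over all genes. BY4741 at T0h is 1 reference RNA, so this test leaves out its own spread, and each industrial strain is 1 sample. The strains were always red and the reference green, so an effect of dye on a gene cannot be told apart from a strain difference here. The T0h arrays of JP1 and CAT-1 also entered the time comparison.

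The isomaltase genes IMA3 and IMA2 and the genes SUC2 and MAL11 had the largest differences. IMA3 had ratios of -1.61 in PE-2, -2.75 in JP1 and -1.22 in CAT-1, a mean of -1.86 (SE 0.29, 3.63-fold lower, limma adjusted p = 0.00674). IMA2 had -1.62 in PE-2, -2.29 in JP1 and -1.28 in CAT-1, a mean of -1.73 (SE 0.22, 3.32-fold lower, limma adjusted p = 0.00397). JP1 was the lowest strain for both isomaltase genes. SUC2 had -1.67 in PE-2, -1.15 in JP1 and -1.82 in CAT-1, a mean of -1.55 (SE 0.19, 2.92-fold lower, limma adjusted p = 0.00354). MAL11 had -1.43 in PE-2, -1.95 in JP1 and -1.06 in CAT-1, a mean of -1.48 (SE 0.21, 2.79-fold lower, limma adjusted p = 0.00499). For these 4 genes every strain was at least 1.06 below the reference on the log2 scale. Whether the probes match the industrial strains as well as BY4741 was not tested.

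The remaining 3 calls were smaller. MAL12 averaged -1.004 (SE 0.16), MAL32 -0.66 (SE 0.15) and MAL13 -0.81 (SE 0.19), with limma adjusted p of 0.00682, 0.02 and 0.0219. MAL12 and MAL32 were above background in red in PE-2 and CAT-1 but not in JP1. The scanner software's processed signals, which add no offset, gave larger differences of -3.01 for MAL12 and -2.48 for MAL32. Without CAT-1 these 3 calls were lost, with adjusted p of 0.0659, 0.137 and 0.151, while IMA3, IMA2, SUC2 and MAL11 passed without any 1 strain.

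MAL31, MAL33 and IMA1 were not called. MAL31 had 0.39 in PE-2, 0.11 in JP1 and 0.38 in CAT-1 (mean 0.30, limma adjusted p = 0.194), all slightly above the reference, in contrast to the other transporter gene. MAL33 had 0.61 in PE-2 but -0.65 in JP1 and -0.77 in CAT-1, and without PE-2 its mean of -0.71 passed (limma adjusted p = 0.0258). IMA1 had 0.43 in PE-2, 0.46 in JP1 and 0.31 in CAT-1 (mean 0.40, limma adjusted p = 0.088), and it passed with the software's processed signals at 0.74 (limma adjusted p = 0.048).

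**Figure D3:**
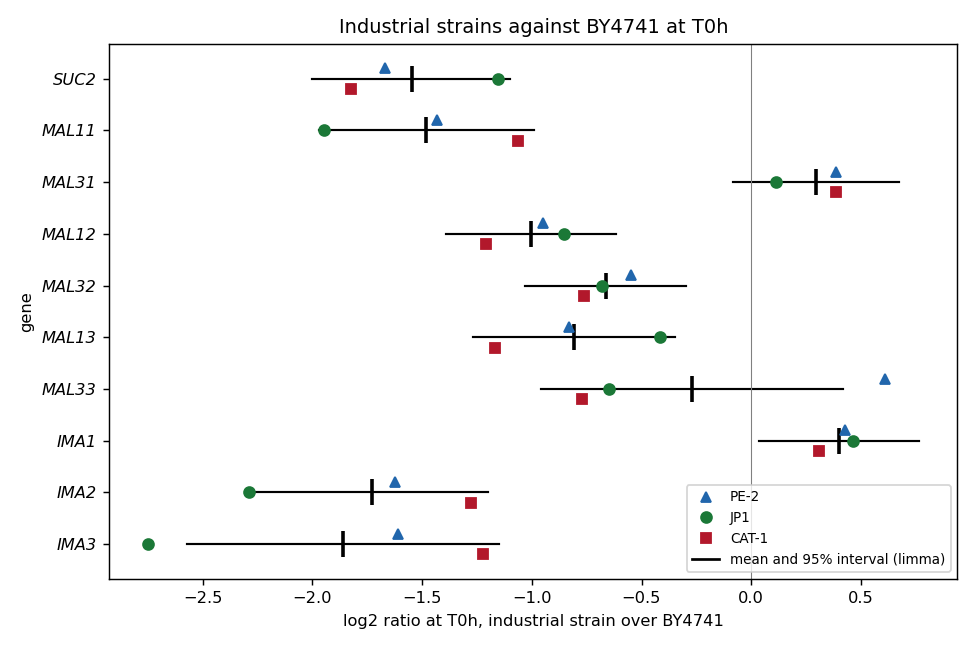
Log2 ratio of each industrial strain over BY4741 at T0h (horizontal axis) for each gene; points are single arrays, the vertical tick is the mean and the line its 95% interval from limma. SUC2, MAL11, IMA2 and IMA3 lie at or below -1.06 in all 3 strains, whereas MAL31 and IMA1 lie between 0.11 and 0.46.

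At T6h, JP1 and CAT-1 were set against the single BY4741 T6h array. No gene of the 5938 was called (0%), with 894 at an unadjusted p under 0.05, among them 2 of the 10 genes. These were MAL31, with 0.44 and 0.08 in JP1 and 0.76 and 0.98 in CAT-1 against -1.63 in BY4741, and SUC2, with 0.11 and -0.12 in JP1 and -0.94 and -1.06 in CAT-1 against -2.60 in BY4741. For both genes BY4741 was below all 4 industrial arrays. The differences were 2.19 (SE 0.48, limma adjusted p = 0.0795) for MAL31 and 2.10 (SE 0.56, limma adjusted p = 0.127) for SUC2. In red signal alone MAL31 passed, at 2.37 (limma adjusted p = 0.0385). IMA2 and IMA3 had negative differences, -0.56 and -0.75, since BY4741 lay near the CAT-1 values and above those of JP1. The others had 1.17 (MAL11), 0.39 (MAL12), 0.31 (MAL32), 0.30 (MAL33), 0.16 (IMA1) and 0.08 (MAL13).

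**Figure D4:**
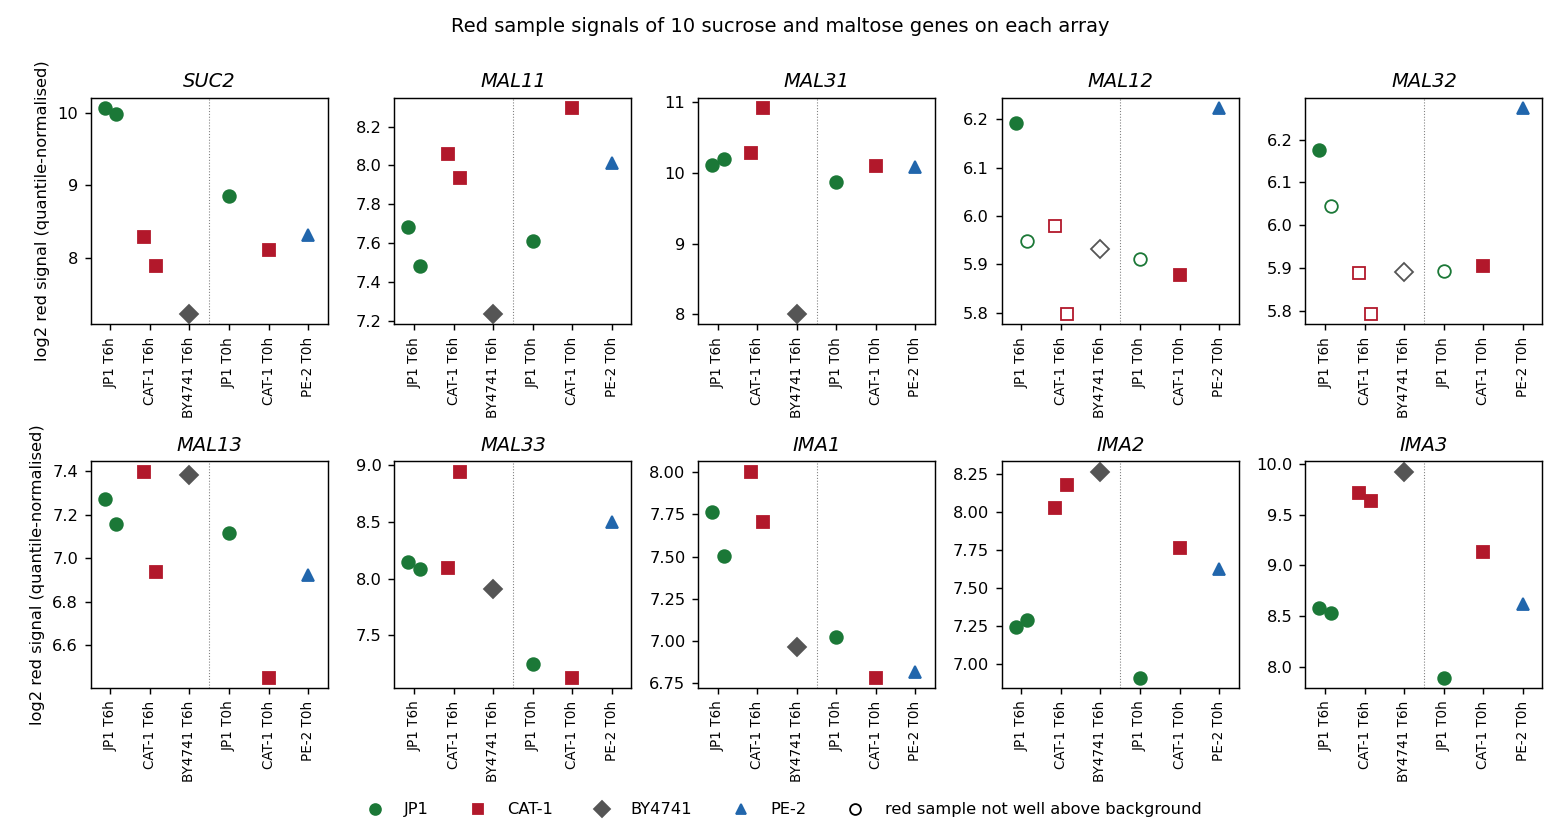
Red sample signal of each gene (vertical axis, log2, quantile-normalised between arrays) on the 8 arrays, with T6h samples left of T0h samples; each point is 1 array, and open points were not well above background; each panel has its own axis range. MAL31 is 8.01 in BY4741 at T6h and between 9.87 and 10.92 on the other arrays, SUC2 is 10.07 and 9.99 in JP1 at T6h, and the maltase genes MAL12 and MAL32 lie between 5.79 and 6.27 on all arrays.

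CAT-1 was set against JP1 with time as a term, over 6 arrays. None of the 10 genes was called by limma, and 0.101% of all genes were. At an unadjusted p under 0.05 there were 4 of the 10 genes, and 903 of all 5938. CAT-1 minus JP1 was 1.29 for IMA3 (SE 0.28, limma adjusted p = 0.0827), 1.13 for IMA2 (SE 0.27, adjusted p = 0.1) and 1.25 for MAL11 (SE 0.36, adjusted p = 0.174). All 3 CAT-1 values lay above all 3 JP1 values for each of these genes. With processed signals this held for IMA3 and IMA2 but not for MAL11. There MAL11 had -1.11 in CAT-1 at T0h and -1.69 in CAT-1 T6h replicate 2, below -1.03 in JP1 T6h replicate 4. For SUC2 the main CAT-1 minus JP1 difference was -0.89 (SE 0.27, limma adjusted p = 0.192), with CAT-1 below JP1 at both times. The others had 0.50 (MAL31), 0.15 (MAL33), -0.20 (MAL13), -0.25 (MAL12), -0.38 (MAL32) and -0.43 (IMA1). In red signal alone the differences of IMA3 (1.16), IMA2 (0.84) and SUC2 (-1.55) passed, with limma adjusted p of 0.0158, 0.0346 and 0.0267. On that scale 318 of the 5938 genes were called.

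Whether the time change itself differed between CAT-1 and JP1 was tested as an interaction. No gene of the 5938 was called by limma (0%), with 341 at an unadjusted p under 0.05 and none of the 10 genes among them. For SUC2 the change in CAT-1 minus that in JP1 was -0.33, with a 95% interval of -1.65 to 0.99, and for IMA3 it was -0.35, with an interval of -1.72 to 1.01. The others had 0.82 (MAL13), 0.55 (MAL11), 0.40 (MAL33), 0.34 (MAL31), 0.18 (IMA2), 0.17 (MAL12), -0.41 (IMA1) and -0.45 (MAL32). In red signal alone the SUC2 value was -1.20 (limma adjusted p = 0.0667). With 1 T0h array for each strain, intervals of this width hold both no difference and differences of more than 2-fold.

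Over all 8 arrays, with strains pooled, none of the 10 genes was called between T6h and T0h by limma, where 15.6% of all genes were. MAL13 and IMA3 had an unadjusted p under 0.05, with differences of 0.68 and 1.02 and adjusted p of 0.0948 and 0.145. For SUC2 the difference was 0.63 (SE 0.52, limma adjusted p = 0.454), with a mean ± SD of -0.92 ± 1.07 at T6h (n = 5) and -1.55 ± 0.35 at T0h (n = 3). The T6h values of SUC2 spanned 2.71 on the log2 scale, from JP1 replicate 1 down to BY4741. The others had 0.62 (IMA2), 0.56 (MAL33), 0.49 (MAL12), 0.43 (MAL11), 0.15 (IMA1), 0.14 (MAL32) and -0.17 (MAL31).

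Near-identical copies can share signal on an array. IMA3 and IMA4, another isomaltase gene, differed by at most 0.10 in log2 ratio on slide 1 and 0.35 on all arrays, so they could not be told apart here. MAL12 and MAL32 differed by at most 0.47 and IMA2 and IMA3 by at most 0.46. MAL12 and MAL32 were well above background in red on 3 arrays alone. On the others the offset pulls both ratios towards 0, so their closeness cannot show shared signal. The transporter genes were separate, with MAL11 below MAL31 by up to 2.32, and so were the activator genes, with MAL13 minus MAL33 between -1.44 and 0.23 in log2 ratio. IMA1 was above IMA3 on every array, by 0.42 to 3.26 in log2 ratio. These are differences in ratio to the reference and say nothing of absolute levels.

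The genes with the most similar pattern were taken as those with the smallest root mean square difference of centred log2 ratios over the 8 arrays. For SUC2 these were RNR1 at 0.30, ERG24 at 0.31 and GLG1 at 0.32, where the median of 3592 candidates was 1.05. For MAL11 they were KIP3 at 0.0946, MAM3 at 0.23 and SNT1 at 0.25, with a median of 0.98 over 4070 candidates. For MAL32 they were GDE1, YSC83 and BRE1, at 0.16 to 0.17, with a median of 0.61 over 5810 candidates. MAL32 was well above background in red on 3 of the 8 arrays, so most of its pattern rests on undetected signal. Candidates were limited to genes with a wide enough span over the arrays relative to the gene compared. The 8 points share 1 reference RNA, and the slide 2 arrays had a dim green channel.

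Genes around the same pathway were grouped in lists. Of 6 relatives of the maltose genes, 2 were called higher over time in JP1 and CAT-1, and none lower, where 12.7% of all genes were called higher and 6.96% lower. One was IMA4 at 1.02 (SE 0.31, limma adjusted p = 0.0396), which could not be told apart from IMA3. The other was ZNF1, a transcription factor gene, whose red signal was well above background in JP1 but on none of the 3 CAT-1 arrays, so that no change was measured in CAT-1 and the pooled difference is not given. Its ratios in JP1 were 0.83 and 1.05 at T6h, against 0.12 at T0h. IMA5, MPH2, MPH3 and YPR196W did not pass, with differences of -0.01, 0.32, 0.60 and -0.43.

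Of 13 genes of glucose repression, 4 were called higher over the same time and none lower, against 12.7% and 6.96% of all genes, with a list median of 0.68. They were HXK2, the hexokinase that takes part in glucose repression, at 2.60 (SE 0.29, limma adjusted p = 0.000217), the corepressor genes TUP1 at 1.72 and CYC8 at 1.43 (adjusted p = 0.00588 and 0.0144), and MIG2, a zinc finger repressor that acts on SUC2. The green reference of MIG2 was well above background on CAT-1 T6h replicate 2 alone, so its ratios have no measured reference and no size is given for its change. They were 2.23 and 0.69 in JP1 at T6h, against -0.06 at T0h, and 4.31 and 1.91 in CAT-1 at T6h, against 0.13 at T0h, with red signal well above background on all 8 arrays. MIG1 had 1.101 (limma adjusted p = 0.0528), and SNF1, the kinase gene, had 0.68 (adjusted p = 0.128). Of 7 galactose genes, GAL10 was too dim to test, and of the other 6 the repressor gene GAL80 was called higher at 1.77 (SE 0.30, limma adjusted p = 0.00244), 1 of 6 where 12.7% of all genes were.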

How the data were processed

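Per the file headers, the arrays were scanned and quantified with Agilent Feature Extraction 10.10.1.1, and the deposited spot and background medians and processed signals are intensity values. The deposited log ratio is a log10 of red over green processed signal per the file headers, and was used to check direction. The deposited quality marks are coded flags with no unit (other). Per the submitters' processing notes limma was used, with no version given. The deposited value table has no stated unit (other), and since 5 of its 8 columns tracked an array other than their own, it was not used for any comparison. The labelling notes mention a dye swap, but per the labels every sample is in red.

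Background correction here was normexp (offset 50), followed by within-array loess that ignored control spots, using limma 3.58.1 and R 4.3.3. An offset pulls the ratios of dim probes towards 0. The mean of 2 spots was taken per probe. A gene was kept if either channel was marked well above background on 3 or more arrays (5938 of 6256), and 5756 symbols were matched in the R64 RefSeq gene table, with 500 unmatched. Differences are on the log2 scale. The 7 comparisons used limma's two-sided moderated test with Benjamini-Hochberg adjustment over 5938 genes and a threshold of 0.05. The fits of the 7 comparisons were tested on simulated data, but the alternatives were not. The plan had named mean signals, and medians were used because the scanner files used here hold no means. Alternatives were the processed signals, an offset of 10, median centring, dim-probe filters, slide, red alone, and leaving out arrays. All 10 genes are given in every comparison, and other listed genes where they passed over time in JP1 and CAT-1, at most 4 per list, with all 6 relatives. Listed genes named for other comparisons were chosen after their values were seen. The genes, lists and comparisons were chosen with earlier results of these data known. The number of arrays limits the precision.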

Additional observations from a re-analysis of the deposited data

Results flagged for a closer look

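The time change differed between strains for 3 genes in limma's test of the difference itself, JP1 and CAT-1 against BY4741, where 6.53% of all genes were called higher and 5.2% lower. The values were 3.586 for SUC2, 2.676 for MAL11 and 1.942 for MAL31 on the log2 scale, with adjusted p of 0.00558, 0.0279 and 0.0333. For SUC2 the 4 industrial T6h arrays were 0.76 to 1.26 above T0h of their strain, and BY4741 was 2.60 below its own. In red signal alone the SUC2 changes were 1.21 and 1.14 in JP1 but 0.17 and -0.23 in CAT-1. For MAL31 the industrial changes were -0.04 to 0.59, and that of BY4741 was -1.63. All 3 calls were lost with processed signals, an offset of 10 or median centring, and without CAT-1 T6h replicate 2 or replicate 5. BY4741 is 1 array, and whether another BY4741 culture would give the same was not tested. An effect of dye, which would enter the BY4741 change alone, was not tested either. No sample of the 10 genes stood apart from its group of 5 T6h arrays by Dixon's criterion. That group mixes JP1, CAT-1 and BY4741, so differences between strains widen its range and the criterion can miss a sample that stands apart.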

How the results depend on the processing

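Of 856 gene values under alternatives, 800 kept their side of the threshold, 48 lost a call, 8 gained one, and no called value changed sign, although 47 uncalled ones did. Most of the 856 were of genes not called in the main fit, which had no call to lose. The 48 losses come from the 3 calls over time in JP1 and CAT-1, the 7 at T0h and the 3 against the change of BY4741. For the time change in JP1 and CAT-1, 1167 genes were called, against 565 with processed signals, 339 with median centring, 2505 with red alone, and 417 to 1174 with 1 array left out. Of the 10 genes, 3 were called, against 1 with processed signals (MAL33), 0 with an offset of 10, 0 with median centring, 1 with slide as a block, 0 on slide 1 alone, and 0 to 1 with 1 array left out. With strains pooled, 929 genes were called, against 439 with median centring, 1613 with red alone and 446 to 1126 with 1 array left out. The replicate block gave 536 genes and 0 of the 10, but same-numbered samples are different strains, so the number pairs nothing. At T0h, 1939 genes were called, against 532 to 1937 with 1 strain left out, and of the 10 genes 7, against 4 to 8. For T6h against BY4741, 0 genes were called, against 2 with slide as a block, 196 with red alone (1 of the 10, MAL31) and 0 to 60 with 1 array left out. For CAT-1 against JP1, 6 genes were called, against 1 with processed signals, 3 with median centring, 2 with the strict filter, 0 on slide 1 alone, 318 with red alone (3 of the 10) and 0 to 106 with 1 array left out. Their interaction had 0 calls, against 413 with red alone (0 of the 10) and 0 to 50 with 1 array left out. Against the change of BY4741, 697 genes and 3 of the 10 were called, against 0 and 0 with processed signals, 3 and 0 with an offset of 10, 2 and 0 with median centring, and 2 to 1338 genes and 0 to 4 of the 10 with 1 array left out. In the single BY4741 array, MAL12 had -0.82 on the log2 scale, against -3.56 with processed signals and -1.66 with an offset of 10, and MAL32 had -0.78, against -3.85 and -1.64, and MAL13 had -0.19, against -0.36 with processed signals. Neither maltase gene was well above background in red there, while MAL13 was. What caused these and the other differences between settings was not tested. The interaction on slide 1 alone or without a T0h array, and the comparisons with BY4741 without its array, could not be fitted.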

Other observations

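Relatives of the maltose genes differed by strain in detection. MPH2 and MPH3, which code for alpha-glucoside permeases, were not well above background in red in PE-2 (net signals of 14 and 7.5), although that array had the brightest red channel, and they were on the other 7 arrays. ZNF1 was not well above background in red on the 3 CAT-1 arrays (4.5 and 5.75 at T6h, 22.8 at T0h) or in BY4741 at T6h (12.8). It was well above background in JP1 on all 3 arrays (358 and 252 at T6h, 164.5 at T0h) and in PE-2 (898.5). In BY4741 the ratio of ZNF1 was 3.25-fold lower at T6h than at T0h, on that undetected red signal. In the industrial strains at T0h, against BY4741, 5 of the 6 relatives lay below 0 (median -0.771), 1 was called lower and 1 higher, where 17.5% of all genes were called lower and 15.2% higher. The lower one was IMA4, which could not be told apart from IMA3, at -1.83 (SE 0.29, 3.56-fold, limma adjusted p = 0.00687). The higher one was YPR196W, which codes for a putative transcription factor, at 0.64 (SE 0.18, limma adjusted p = 0.037), with 0.32 in PE-2, 0.94 in JP1 and 0.65 in CAT-1.

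In the same T0h comparison, 4 of the 13 glucose repression genes were called lower, HXK2 at -2.502, SIP2 at -1.46, TUP1 at -0.94 and MIG1 at -0.80, and 1 higher, SNF4 at 0.87 (limma adjusted p between 0.00151 and 0.0187). Of the 6 galactose genes tested, GAL80 at -1.47 and GAL1 at -1.15 were called lower (limma adjusted p = 0.00433 and 0.00677). Against the change of BY4741 over 6 h, those called higher in JP1 and CAT-1 were TUP1 at 2.497, GAL80 at 2.10 and ZNF1 (limma adjusted p = 0.027, 0.0253 and 0.00817). These were 1 of the 13 glucose repression genes, 1 of the 6 galactose genes tested and 1 of the 6 relatives, with none called lower. Over all genes, 6.53% were called higher and 5.2% lower. BY4741 had 1 array, and with processed signals 0 genes were called in this comparison. ZNF1 was at background in red in CAT-1 and in BY4741 at T6h, so no size is given for it.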
